A study of Homo sapiens with 24 samples.

Results

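The genes described here are the 200 long intergenic non-coding RNA genes (lincRNAs) with the most reads in FaDu and SAS spheroids, out of 7302 lincRNA genes in the count tables. They were chosen by the raw counts themselves: genes that GENCODE release 29 types as lincRNA were ranked by their counts summed over 24 libraries, and the first 200 were kept. The last gene inside was LINC02562 with 1092 counts and the first outside was LINC00472 with 1074. The 200 members held 83.9% of all lincRNA counts, so the list covers most of what was sequenced from this class, and a high sum is the way in and not a result. One member, XIST, is counted among the 200 but no level or change of it is given.

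FaDu and SAS are established human lines of head and neck squamous cell carcinoma (HNSCC), grown for 4 days into spheroids, which are dense multicellular aggregates. The study asked how hyperthermia (HT) changes the response to radiation (RT), and sequenced RNA 0.5 h after treatment from 3 replicates in each of 8 groups. The replicates are given as independent experiments. Control spheroids received neither treatment; RT was a single dose, 7 Gy in FaDu spheroids and 10 Gy in SAS spheroids; HT was 42.5 °C for 60 min; and HT + RT spheroids were heated and then given the same dose. Each spheroid type comes from 1 cell line, so a difference between FaDu and SAS is a difference between 2 lines, and the RT doses differ between them.

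LincRNAs are transcribed and processed much like messenger RNAs but are not translated into a known protein. Some of the abundant ones build structures in the nucleus, some carry small RNAs in their introns or exons, and many start beside a protein-coding gene and share its promoter region. Heat and DNA damage are known to change the transcription and the processing of several of them, and squamous carcinomas are known to differ in which ones they express.

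The authors counted reads per gene, and the library totals ranged from 15203484 to 29452514 counts with a median of 18378943. Members took between 0.317% of the counts, in FaDu control replicate 1, and 0.529%, in FaDu HT replicate 3. Levels below are CPM, the edgeR unit of counts relative to library size, after TMM scaling over all libraries, and levels of different genes are compared only as CPM per kb of merged exons. The libraries were directional, but the strand setting of the counting is not given in the sources used here, so reads of 116 members that overlap another annotated gene cannot be told apart from reads of that gene with certainty (62 overlap on the same strand, 86 on the opposite strand).

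The first replicate of every FaDu group stood apart. Over all genes, the FaDu pairs with replicate 1 differed by a chi-square per gene of 13.6 to 19.5, against 3.29 to 4.69 for replicates 2 and 3 and 4.32 to 10.6 among SAS libraries. Among the members, the median absolute log2 difference between libraries of 1 FaDu group was 0.23 to 0.35 in pairs with replicate 1 and 0.15 to 0.18 without it. Results in FaDu spheroids are therefore also given without these libraries, a comparison chosen after seeing the data.

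Genes with a known response showed what each treatment did in these libraries. Of 6 heat check genes, HSPA1A, HSPA1B, DNAJB1, HSPH1 and BAG3 passed the test upward after HT, with log2 changes of at least 1.57 in FaDu spheroids, and of at least 2.85 in SAS spheroids. The other, HSPA6, an inducible Hsp70, lay between 0.294 and 0.525 CPM in FaDu controls and between 3932 and 4988 CPM after HT, and with 1 FaDu control over the count cutoff it entered the FaDu test through its heated libraries. None of 6 p53 targets (CDKN1A, MDM2, GDF15, BTG2, PLK3 and FAS) passed after RT alone, with medians of 0.12 in FaDu and 0.10 in SAS spheroids, and BTG2 and PLK3 passed upward after HT in FaDu spheroids.

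Markers of 4 cell types were summed in each library. The 8 epithelial markers summed to between 3747 and 11644 CPM, with the keratin gene KRT17 the most abundant. The 5 leukocyte markers summed to between 4.37 and 9.57 CPM (CD14 most abundant) and the 4 endothelial markers to between 6.17 and 23.6 CPM (CDH5 most abundant), and no marker of any list was at 0 in all libraries. The 5 fibroblast markers summed to between 1.65 and 65.8 CPM, with the collagen gene COL1A1 the most abundant, and in SAS spheroids they lay between 1.65 and 2.48 CPM in control and RT libraries and between 17 and 31 CPM in HT and HT + RT libraries. COL1A1 moved with heat in SAS spheroids, from a mean of 1.33 CPM in controls to 23.6 CPM after HT (log2 fold change 4.18, SE 0.28, adjusted p 6.4e-07), and its part in the members' changes was not tested. The other fibroblast markers stayed under 0.8 CPM in SAS libraries, with means in controls and after HT of 0.374 and 0.291 CPM for PDGFRB, 0.17 and 0.197 for LUM, 0.0771 and 0.232 for COL1A2 and 0.0196 and 0 for DCN. In bulk RNA, fewer cells of a type and less RNA per cell cannot be told apart.

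Per kb of exon, the members spanned from 0.165 to 106 CPM with a median of 2.2, beside a median of 2.03 over 18665 protein-coding genes with a count, and 107 members lay above that median. They were also shorter: merged exons had a median length of 2778 bases, against 4429 for protein-coding genes. Of the members, 51 had 1 exon block. Averaged over all libraries, NORAD, an RNA that binds Pumilio proteins and guards genome stability, had the highest level at 106 CPM per kb. This ranking pools both lines and all treatments. The order can differ in a library: MALAT1 lay above NORAD per kb in FaDu HT replicate 3, for example, and not every library is listed here. SNHG19 followed with 50, then MALAT1 with 42.2, AL161431.1 with 41.1, SNHG8 with 40.6 and AC245041.2 with 40.4. NEAT1 had the most counts of all members (364346), but with merged exons of 22767 bases its level was 34.6 CPM per kb. The next were AC245041.1 (28.8), LNCAROD, a regulator of the nearby DKK1 gene (23.9), UCA1, an RNA named for urothelial cancer (20.7), SFTA1P (20.7) and AC007207.2 (17.2). LINC01503 (16.2), LINC00958 (14.8), AC092112.1 (14.7), LINC01615 (13.8), SNHG15 (12), AL035661.1 (11), AP002360.1 (10.8) and AL391121.1 (10.8) completed the first 20. NEAT1, NORAD and MALAT1 together held 45.6% of the members' counts.

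**Figure D1:**
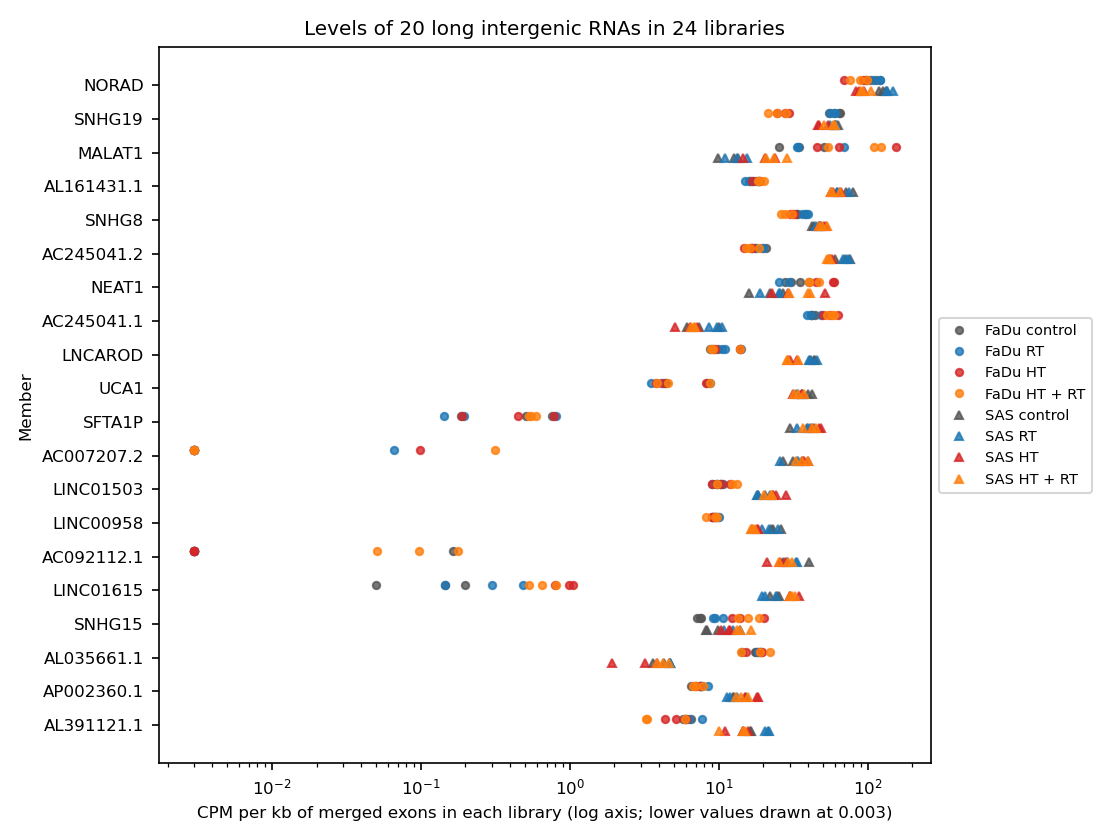
CPM per kb of merged exons (horizontal log axis) of the 20 members with the highest mean, 1 point per library, with circles for FaDu, triangles for SAS and colours for treatment. NORAD has the highest mean over all libraries (106), but MALAT1 lies above it in FaDu HT replicate 3, for example. SFTA1P, AC007207.2, AC092112.1 and LINC01615 have circles far to the left of their triangles.

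Some members resemble another gene in sequence, which limits how reads can be assigned. Of the 200, 10 had another annotated transcript of at least 95% identity over at least 50% of their longest transcript. Among them, LINC01106 and LINC01123 were 99.5% identical over 92.3% of the length, MIR4435-2HG and CYTOR 99.2% over 63.2%, and NORAD matched OVCH1-AS1 at 95.9% over 86.4%. AC245041.2 was 98.7% identical to the annexin gene ANXA8 over 100% of its transcript. Values of these members may include reads of the copy.

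Each comparison below was tested with edgeR over all genes that passed a filter on low counts, and a gene is called altered when its Benjamini-Hochberg adjusted p is below 0.05 and its log2 fold change is more than 1 in size. RT alone altered none of the members: 0 of 180 tested in FaDu spheroids, against 0.00643% of all 15552 genes, and 0 of 189 in SAS spheroids, against 0.0272% of 14680. At an unadjusted p under 0.05 there were 14 members in FaDu and 17 in SAS spheroids, 7.78% and 8.99%, beside 5.09% and 5.68% of all genes. These counts depend on the fit: same-numbered libraries pair in both types, and with the replicate block there were 28 and 33 (15.6% and 17.5%, beside 1630 of 15552 and 1738 of 14680 genes). Leaving out 1 library gave 7 to 19 in FaDu and 11 to 24 in SAS spheroids. DESeq2 also altered 0 members in each, and 11 and 10 of all genes, where edgeR altered 1 and 4. The lowest p in FaDu spheroids belonged to MIR22HG, the host gene of miR-22, with 13.5, 15.7 and 16.8 CPM in controls and 21.4, 25.8 and 23.5 CPM after RT. Its RT libraries all lay above its controls, with a log2 difference of 0.62 (SE 0.11, p 0.00036, adjusted p 0.21). In SAS spheroids MIR22HG had 19.6, 18.6 and 24.8 CPM in controls and 27.2, 34.3 and 27.8 CPM after RT, again without overlap (0.51, SE 0.13, adjusted p 0.4). MIR222HG, the host of miR-221 and miR-222, was the 1 member whose call depended on a library: its log2 difference after RT in SAS spheroids was 0.77 (adjusted p 0.63) over all libraries and 1.06 (adjusted p 0.029) without SAS RT replicate 3.

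HT altered 13 members upward and 2 downward of 183 tested in FaDu spheroids, where 4.29% and 0.674% of all 15879 genes were altered in these directions. In SAS spheroids it altered 11 members upward and 3 downward of 188, beside 5.31% and 0.713% of 15000 genes. The FaDu count includes AC025259.3 and LINC01615, which entered the test through their HT libraries alone and had to differ. Without all such genes, a choice made after seeing the data, 11 members upward and 2 downward of 181 were left in FaDu spheroids, beside 2.99% and 0.629% of 15585 genes, and the SAS members were the same, beside 3.66% and 0.627% of 14678. The median log2 fold change of the tested members was 0.07 in FaDu and 0.06 in SAS spheroids, and that of all genes was 0.01 and 0.00. HT + RT against control altered 15 upward and 3 downward of 184 members in FaDu spheroids (5.08% and 0.642% of 15896 genes) and 15 upward and 4 downward of 188 in SAS spheroids (5.76% and 0.596% of 14938). Without such genes these were 12 and 3 of 181 (3.38% and 0.566% of 15551) and 15 and 4 of 188 (4.14% and 0.567% of 14641). Without the FaDu replicate 1 libraries, HT altered 18 members in FaDu spheroids, 14 of them among the 15 above, and HT + RT altered 21, which included all 18. Members untested in a comparison had too few counts there: 17 for HT in FaDu and 12 in SAS spheroids.

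HT + RT against RT measures heat a second time in libraries that HT against control does not use. It altered 11 members upward and 2 downward of 183 in FaDu spheroids, beside 4.76% and 0.629% of 15905 genes, and 15 upward and 3 downward of 188 in SAS spheroids, beside 5.71% and 0.893% of 15125. Without genes that entered through 1 group alone, these were 9 and 2 of 180 (3.07% and 0.553% of 15554) and 15 and 3 of 188 (4.17% and 0.763% of 14809). Without the FaDu replicate 1 libraries the FaDu count was 18, with 12 of the 13 among them. Without genes that entered either comparison through 1 group alone, the heat changes of 180 members in FaDu spheroids had a Pearson correlation of 0.90 and a Spearman correlation of 0.78 between these separate sets of libraries, against 0.86 and 0.75 over 15235 genes. In SAS spheroids the values were 0.92 and 0.85 over 187 members, against 0.86 and 0.76 over 14424 genes. Genes, unlike libraries, are not independent replicates, so these correlations only describe. Again without them, 10 members were altered the same way in both in FaDu spheroids, 76.9% of the first list and 90.9% of the second, beside 66.3% and 66.4% over all genes. In SAS spheroids 11 were, 78.6% and 61.1%, beside 73% and 62.9%. The FaDu calls for HT without a call against RT were LINC01615, OLMALINC (0.98), SNHG15 (0.71) and MIR22HG (0.28), and the SAS ones were NUP50-DT (0.65), DUBR (-0.53) and MIR210HG (-0.85). Adding RT to heat altered no member: HT + RT against HT gave 0 of 184 in FaDu (0% of 16145 genes) and 0 of 188 in SAS spheroids (0% of 15341) by edgeR. DESeq2 gave 0 in each (2 and 5 of all genes). At an unadjusted p under 0.05 there were 7 and 10, 3.8% and 5.32% of members, beside 2.24% and 4.39% of all genes. Leaving out 1 library gave 3 to 9 in FaDu and 6 to 17 in SAS spheroids. With the replicate block the shares were 7.07% and 11.7% of members, beside 9.01% and 9.93% of all genes.

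**Figure D2:**
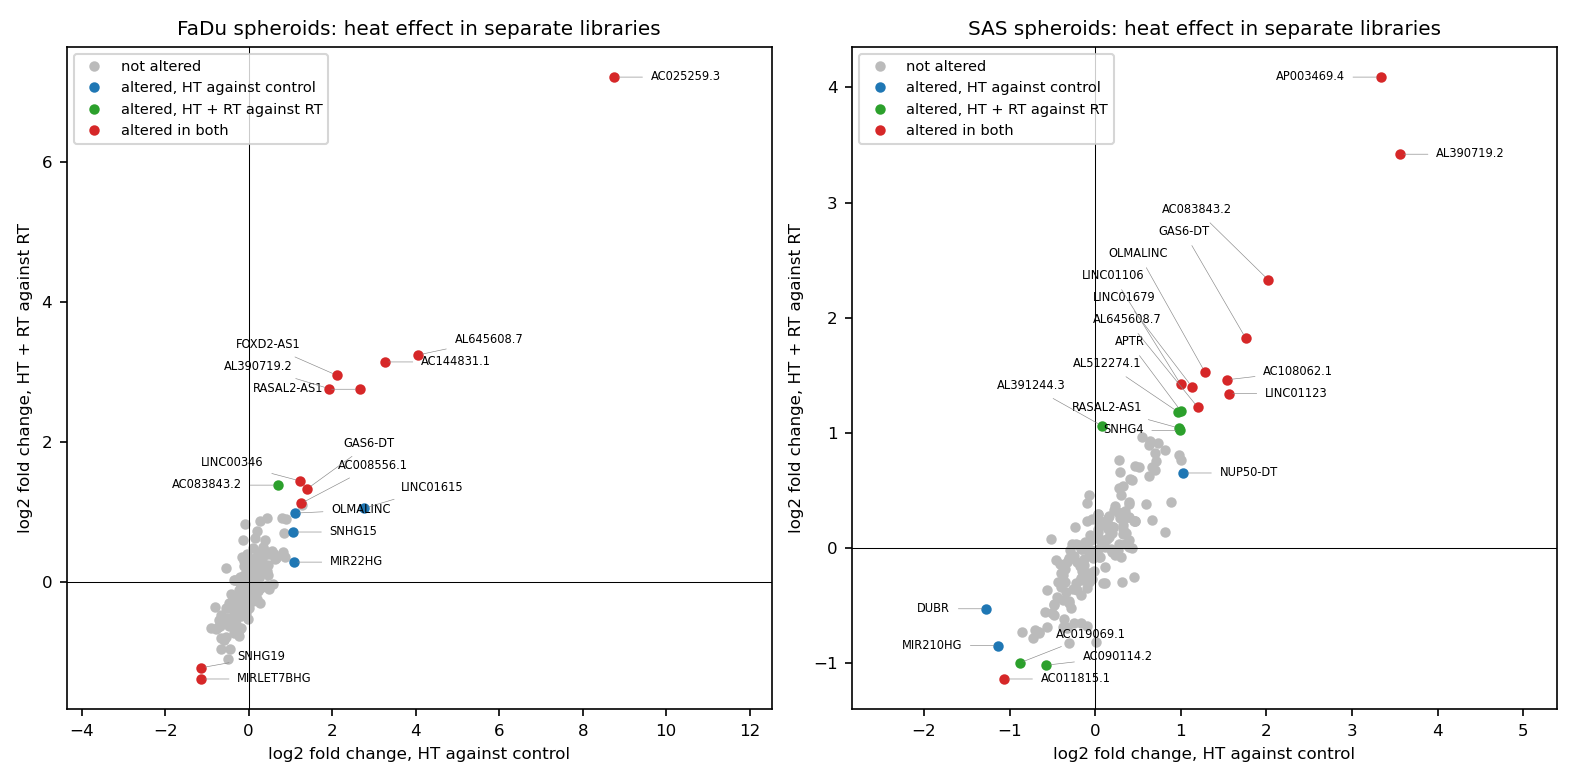
Log2 fold change of each member for HT against control (horizontal) and for HT + RT against RT (vertical), in FaDu (left) and SAS spheroids (right), with 1 point per member and colours for the calls. AC025259.3 stands far out in FaDu spheroids at 8.76 and 7.21, and AL390719.2 and AP003469.4 lead in SAS spheroids.

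Heat changes were also compared between the types, across genes. Without genes that entered a comparison through 1 group alone, the Pearson correlation for HT against control across 170 members was 0.52 (Spearman 0.46), beside 0.56 (0.50) over 13599 genes. For HT + RT against RT it was 0.61 (0.54) across 169 members, beside 0.55 (0.48) over 13639 genes. OLMALINC, GAS6-DT, AL390719.2 and AL645608.7 were altered by HT in both types, 30.8% of the FaDu list and 28.6% of the SAS list without such genes, beside 28.7% and 25.8% of the lists over all genes. Of these, GAS6-DT, AL390719.2 and AL645608.7 were altered upward in all 4 comparisons of heat in separate libraries, HT against control and HT + RT against RT in each type.

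**Figure D3:**
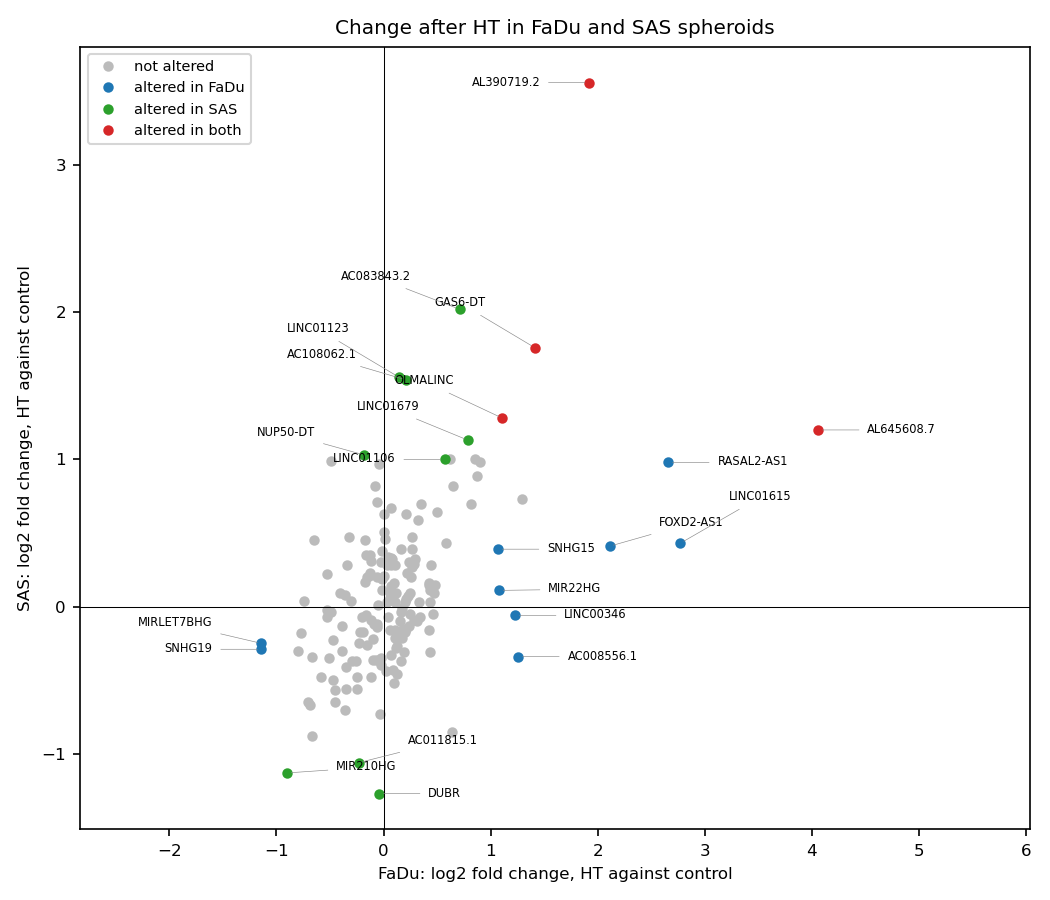
Log2 fold change after HT of each member tested in both types, FaDu on the horizontal and SAS on the vertical axis, with colours for the calls. The 4 members altered in both lie to the upper right, AL645608.7 at 4.06 and 1.20 and AL390719.2 at 1.92 and 3.56.

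NEAT1 is the scaffold of paraspeckles, and it lay at 637, 696 and 807 CPM in FaDu controls and at 1345, 1028 and 1337 CPM after HT. Every FaDu HT library was above every control, with a log2 difference of 0.82 (SE 0.12, adjusted p 0.0026), under the size needed for a call. In the separate FaDu libraries the rise was weaker, with 583, 922 and 678 CPM after RT and 1069, 928 and 925 CPM after HT + RT. The second RT library lay just under the lowest HT + RT library, and NEAT1 did not reach an adjusted p under 0.05 in that comparison. In SAS spheroids NEAT1 lay at 366, 506 and 619 CPM in controls and at 1180, 519 and 667 CPM after HT, where the second HT library fell among the controls (0.70, SE 0.26, adjusted p 0.069). After HT + RT the SAS values were 903, 935 and 671 CPM, all above the controls (0.80, SE 0.17, adjusted p 0.0046). Of 20 genes for paraspeckle proteins, HT altered 0 in FaDu spheroids (median log2 fold change 0.01), beside 4.29% upward and 0.674% downward of all genes. In SAS spheroids it altered 1 upward (median 0.00), beside 5.31% and 0.713% of all genes. That 1 was the entry read for the symbol MATR3, an RNA-binding protein gene. It had 5.66, 3.93 and 5.19 CPM in SAS controls and 7.83, 11.4 and 10.7 CPM after HT (log2 fold change 1.05, SE 0.18, adjusted p 0.0015). This was a low level beside means of 372 CPM for NONO and 551 CPM for SFPQ in SAS controls. A single annotated gene was read per symbol, so any other entry named MATR3 is not covered, and a rise of the gene as a whole cannot be read from this.

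MALAT1, a long RNA retained in nuclear speckles, had 223, 452 and 306 CPM in FaDu controls and 402, 569 and 1375 CPM after HT. The HT libraries were widely spread, and the first of them lay below the second control. Its log2 difference was 1.29 (SE 0.43, adjusted p 0.075), and it passed when replicate numbers were fitted as a block (1.14, adjusted p 0.00087), without the FaDu replicate 1 libraries (1.40, adjusted p 3e-05) or without FaDu HT replicate 1 (1.61, adjusted p 0.011). After HT + RT the FaDu values were 482, 1095 and 981 CPM, all above the controls, and MALAT1 was altered with a log2 fold change of 1.40 (SE 0.32, adjusted p 0.015). That call was lost without FaDu control replicate 3 (1.35, adjusted p 0.068), HT + RT replicate 2 (1.17, adjusted p 0.058) or HT + RT replicate 3 (1.30, adjusted p 0.058). Against RT the FaDu value was 1.09 (adjusted p 0.069), and it passed with the block (1.09, adjusted p 0.0016), without the FaDu replicate 1 libraries (1.19, adjusted p 0.00011), without FaDu RT replicate 2 (1.53, adjusted p 0.022) or without HT + RT replicate 1 (1.37, adjusted p 0.011). In SAS spheroids MALAT1 had 210, 129 and 180 CPM after HT, which was not a call (0.73, SE 0.16, adjusted p 0.0052). It rose from 88, 112 and 119 CPM in SAS controls to 183, 208 and 253 CPM after HT + RT, without overlap (1.06, SE 0.13, adjusted p 9.7e-05), and the change was 0.93 without SAS control replicate 1 and 0.93 without SAS HT + RT replicate 3. Against RT, the SAS value of 0.91 passed without SAS RT replicate 2 (1.04) or SAS HT + RT replicate 1 (1.01).

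Speckle proteins include splicing factors and their kinases. Of 15 such genes, HT altered 1 in FaDu spheroids (median 0.12) and 3 in SAS spheroids (median 0.09), all upward. Over all genes, 4.29% and 5.31% were altered upward. CLK1, a kinase of splicing factors, went from 27, 20.5 and 28.8 CPM to 44.2, 38.2 and 79.6 CPM in FaDu spheroids (log2 fold change 1.12, SE 0.26, adjusted p 0.02). In SAS spheroids CLK1 went from 36.5, 42 and 43.7 CPM to 262, 298 and 311 CPM (2.87, SE 0.09, adjusted p 4.9e-10). The groups did not overlap in either type. CLK4 (1.65) and the splicing regulator TRA2A (1.05) were the others in SAS spheroids.

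NORAD was not altered by HT in either type, with 524, 552 and 611 CPM in FaDu controls and 373, 524 and 496 CPM after HT. The lowest control and the highest HT library were equal at 3 digits, and the log2 difference was -0.25 (SE 0.13, adjusted p 0.22). In SAS spheroids NORAD had 674, 639 and 715 CPM in controls and 444, 471 and 508 CPM after HT, all HT libraries below all controls (-0.48, SE 0.06, adjusted p 0.00017). NORAD, NEAT1 and MALAT1 belong to a list of 29 names of p53-linked and stress-linked lincRNAs, of which 10 are members. RT altered 0 of the 10 in either type, with medians of 0.15 in FaDu and 0.12 in SAS spheroids. HT altered 1 upward in FaDu spheroids (MIR22HG, median of the list 0.18), beside 4.29% of all genes. In SAS spheroids it altered 1 downward (MIR210HG, median 0.30), beside 0.713% of all genes. After HT, PVT1, which lies near the MYC gene, had a log2 difference of 0.27 in FaDu and 0.39 in SAS spheroids. CYTOR, named as a regulator of the cytoskeleton, had 0.16 and 0.39, TP53TG1, a p53 target, 0.21 and 0.05, LINC-PINT, a p53-induced transcript, -0.12 and 0.31, and LINC00941 0.06 and 0.30, none of them altered.

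Members that host small nucleolar RNAs (snoRNAs) in their introns went in both directions. Of 7 such hosts, HT altered 1 upward and 1 downward in FaDu spheroids (median log2 fold change -0.17), beside 4.29% and 0.674% of all genes. In SAS spheroids it altered 0 by edgeR (median 0.28), beside 5.31% upward and 0.713% downward of all genes. There, 3 hosts had an adjusted p under 0.05, beside 23.6% of all genes. SNHG19 fell in FaDu spheroids, from 22.3, 22 and 18.9 CPM in controls to 10.2, 9.62 and 8.39 CPM after HT. All HT libraries lay below all controls (-1.14, SE 0.12, adjusted p 0.00042), and after HT + RT the values were 9.71, 8.43 and 7.39 CPM (-1.29, SE 0.13, adjusted p 0.00025). In SAS spheroids SNHG19 had 21.8, 20.9 and 20.8 CPM in controls and 16.2, 16 and 18.5 CPM after HT (-0.29, SE 0.10, adjusted p 0.05), and the interaction of spheroid type and HT was -0.82 (SE 0.15, adjusted p 0.0042), under the size for a call. Its divergent partner TRAF7, which starts 340 bases away, had log2 differences of 0.01 in FaDu and 0.03 in SAS spheroids.

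The change of SNHG4 after HT differed by type. In SAS spheroids it had 14.4, 18.4 and 18.7 CPM in controls, 34.5, 31.7 and 33.8 CPM after HT and 49.5, 46.8 and 45 CPM after HT + RT. Each heated group lay above the controls, and the HT + RT libraries lay above the HT libraries too. For HT + RT against HT in SAS spheroids, however, no snoRNA host had an adjusted p under 0.05, and the highest log2 difference was 0.51. Against RT, SNHG4 had 1.02 in SAS spheroids. Its log2 difference was 0.99 (SE 0.11, adjusted p 6.2e-05) after HT, just under the size for a call, and it was altered after HT + RT at 1.51 (SE 0.11, adjusted p 1.5e-06). In FaDu spheroids SNHG4 had 15.7, 14.4 and 15.9 CPM in controls and 8.77, 9.98 and 13.5 CPM after HT, with no HT library above a control (-0.49, SE 0.16, adjusted p 0.075). The interaction was -1.44 (SE 0.20, adjusted p 0.00055). SNHG4 overlaps SIL1 on the opposite strand, and SIL1 differed by -0.01 in FaDu and 0.01 in SAS spheroids after HT. Partners in this class are taken from the opposite strand only. A gene that overlaps SNHG4 on the same strand would not be seen here, and whether its reads add to the change of SNHG4 was not tested.

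SNHG15 was altered upward by HT in FaDu spheroids, from 27.4, 28 and 26 CPM to 73.4, 45.2 and 50.5 CPM. All HT libraries lay above all controls, and the first lay highest. The log2 fold change was 1.07 (SE 0.16, adjusted p 0.0025), but it was 0.86 without the FaDu replicate 1 libraries and 0.85 without FaDu HT replicate 1, under the size for a call. After HT + RT it was 1.12 (SE 0.11, adjusted p 0.00025) and 0.99 without FaDu HT + RT replicate 1. In SAS spheroids SNHG15 had 30.1, 36.1 and 30.6 CPM in controls and 37.7, 43.7 and 42.9 CPM after HT (0.39, SE 0.10, adjusted p 0.011), and the interaction was 0.71 (adjusted p 0.052). The remaining hosts were not altered by HT: SNHG8 had -0.15 in FaDu and 0.20 in SAS spheroids. EPB41L4A-AS1 had -0.17 and 0.45, SNHG9 0.11 and 0.28, and SNHG25 -0.67 and -0.34.

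Members that host microRNAs can be read beside the sequences they carry. The 3 hosts below had a call after heat, and their mature microRNAs are shown 5′ to 3′ from RefSeq (GRCh38.p14) with the seed, bases 2 to 8, in capitals. The microRNAs themselves were not measured. The let-7 sequences share their seed, and the seeds of the other hosts differ from it and from each other. They lie at chr22:46112752-46112773 on the + strand (let-7a-5p), chr22:46113691-46113712 on the + strand (let-7b-5p), chr17:1713914-1713935 on the - strand (miR-22-3p) and chr11:568112-568133 on the - strand (miR-210-3p).
let-7a-5p, in MIRLET7BHG: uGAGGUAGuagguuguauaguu
let-7b-5p, in MIRLET7BHG: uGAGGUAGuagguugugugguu
miR-22-3p, in MIR22HG: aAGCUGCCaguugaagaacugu
miR-210-3p, in MIR210HG: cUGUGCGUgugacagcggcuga

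Of 9 microRNA hosts among the members, HT altered 1 upward and 1 downward in FaDu spheroids (median -0.12), beside 4.29% and 0.674% of all genes. In SAS spheroids it altered 1 downward of 8 tested (median -0.03), beside 0.713% downward of all genes. MIRLET7BHG, the host of the let-7 sequences above, had 19.6, 25.7 and 26.6 CPM in FaDu controls and 10.2, 9.67 and 12.1 CPM after HT. It fell without overlap (-1.14, SE 0.15, adjusted p 0.0012), and after HT + RT it lay at 8.51, 9.93 and 10 CPM (-1.32, SE 0.14, adjusted p 0.00029). SAS spheroids held less of it, with 3.26, 3.42 and 2.59 CPM in controls and 2.65, 2.66 and 2.33 CPM after HT, where the lowest control lay among the HT libraries (-0.25, SE 0.21, adjusted p 0.46). The controls differed by 2.98 on the log2 scale between the types (SE 0.17, adjusted p 4.9e-08), and the interaction with HT was -0.86 (adjusted p 0.05).

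MIR22HG rose after HT in FaDu spheroids to 29.1, 33.6 and 32.8 CPM, from the control values of 13.5, 15.7 and 16.8 CPM given with RT above. The groups did not overlap (log2 fold change 1.08, SE 0.11, adjusted p 0.0004), and without FaDu control replicate 1 the value lay just under the size for a call. It was 0.90 (adjusted p 0.00097) after HT + RT, and against RT, in the separate libraries, 0.28 (adjusted p 0.12), neither of them a call. SAS HT libraries lay at 25.1, 21.3 and 20.2 CPM, within reach of the controls at 19.6, 18.6 and 24.8 CPM (0.11, SE 0.13, adjusted p 0.59), and the interaction was 0.99 (SE 0.18, adjusted p 0.0035), under the size for a call. MIR210HG, whose microRNA is known from hypoxia, had 3.1, 4.67 and 6.84 CPM in SAS controls and 2.2, 1.67 and 2.66 CPM after HT. All HT libraries lay below all controls (-1.13, SE 0.30, adjusted p 0.017), but the controls were spread, and the call was lost without SAS control replicate 3 (-0.80, adjusted p 0.065) or SAS HT replicate 2 (-0.96, adjusted p 0.07). After HT + RT it was altered in SAS spheroids too (-1.39, SE 0.31, adjusted p 0.006), and that call was kept with each library left out. In FaDu spheroids MIR210HG had 6.51, 2.8 and 4.49 CPM in controls and 4.03, 1.88 and 1.42 CPM after HT, with overlap (-0.90, SE 0.41, adjusted p 0.17; interaction 0.26, adjusted p 0.89). The others were not altered by HT. In FaDu and SAS spheroids the log2 differences were -0.00 and 0.21 for MIR4435-2HG, -0.47 and -0.50 for MIR9-3HG, 0.11 and -0.16 for MIR222HG and 0.43 and 0.11 for MIR4458HG, and MIR193BHG had -0.31 in FaDu spheroids and was not tested in SAS.

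Position beside protein-coding genes splits the members into 4 classes. By GENCODE, 40 members were divergent (opposite strand, starts at most 2000 bases apart), 24 downstream (same strand, starting at most 10000 bases past the end of a protein-coding gene), 27 overlapped such a gene on the opposite strand and 109 were in none of these classes, 7 of which overlap a protein-coding gene on the same strand. In FaDu spheroids HT altered 3 of 39 divergent members tested upward and 1 downward, 4 of 22 downstream members upward, 2 of 27 overlapping members upward and 1 downward, and 4 of 95 of the rest upward, beside 4.29% upward and 0.674% downward over all genes. Of these, AC025259.3 (overlapping) and LINC01615 (among the rest) had to differ. In SAS spheroids the counts were 2 of 40 divergent upward, 3 of 22 downstream upward, 0 of 25 overlapping, and 6 upward and 3 downward of 101 among the rest, beside 5.31% and 0.713%. Between FaDu and SAS controls, divergent members and their partners had a Pearson correlation of 0.72 and a Spearman correlation of 0.68 across 40 pairs. Other classes had 0.77 and 0.38 (downstream), 0.24 and 0.57 (overlapping) and 0.37 and 0.47 (the rest). After HT, divergent pairs had 0.17 and 0.02 across 39 pairs in FaDu spheroids, and 0.09 and 0.13 across 40 pairs in SAS spheroids. For HT + RT against control they had 0.26 and 0.20 in FaDu and 0.07 and 0.16 in SAS spheroids. Against RT these were 0.34 and 0.10 in FaDu and 0.14 and 0.22 in SAS spheroids. Overlapping members and their partners had a Pearson correlation of 0.93 but a Spearman correlation of 0.08 across 26 pairs after HT in FaDu spheroids. AC025259.3 and its partner NR4A1 stood far out there, at 8.76 and 4.57, and the correlation without this pair was not tested.

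GAS6-DT is the divergent transcript of GAS6, the gene for a ligand of the TAM receptors, and their starts lie close together. It had 1.1, 1.02 and 1.3 CPM in FaDu controls and 2.34, 2.77 and 3.85 CPM after HT. The level in SAS spheroids was higher, with 9.08, 8.49 and 5.95 CPM in controls and 30.6, 24.7 and 22.9 CPM after HT. Heated and unheated libraries did not overlap in either type, and the log2 fold changes were 1.41 (SE 0.27, adjusted p 0.0083) in FaDu and 1.76 (SE 0.16, adjusted p 1e-05) in SAS spheroids. In the separate libraries of HT + RT against RT, GAS6-DT had 1.33 (SE 0.24, adjusted p 0.0059) and 1.82 (SE 0.12, adjusted p 7.9e-07), and the interaction with type was -0.33 (adjusted p 0.7). GAS6 itself had 15.7, 17.4 and 15.8 CPM in FaDu controls and 19.3, 17.5 and 20.4 CPM after HT (0.25, adjusted p 0.14), and in SAS spheroids 156, 144 and 121 CPM and then 148, 155 and 134 CPM (0.08, adjusted p 0.54). Between the controls, however, GAS6-DT (-2.74) and GAS6 (-3.07) were both lower in FaDu than in SAS spheroids.

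RASAL2-AS1 starts 157 bases from RASAL2, the gene for a Ras GTPase-activating protein, on the opposite strand. It had 1.52, 0.56 and 1.34 CPM in FaDu controls, 5.85, 7.47 and 8.12 CPM after HT and 7.48, 8.74 and 10.3 CPM after HT + RT. The heated libraries lay far above the controls (2.66, SE 0.31, adjusted p 0.00077 for HT, and 2.97, SE 0.29, adjusted p 0.0002 for HT + RT). In SAS spheroids RASAL2-AS1 had 8.27, 11.1 and 11.1 CPM in controls, 18.8, 21.2 and 18.6 CPM after HT and 19.9, 24.4 and 18 CPM after HT + RT. These groups did not overlap either, with 0.98 (SE 0.14, adjusted p 0.0003), just under the size for a call, after HT and 1.08 (adjusted p 0.00032) after HT + RT. The interaction was 1.71 (SE 0.32, adjusted p 0.0048). RASAL2 differed by -0.10 in FaDu and 0.10 in SAS spheroids after HT, and between the controls both RASAL2-AS1 (-3.11) and RASAL2 (-2.33) were lower in FaDu spheroids.

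The promoters of these divergent members are shown because each contains bases that the partner's promoter window also contains. Each run is read 5′ to 3′ on the member's strand from RefSeq (GRCh38.p14), from 250 bases before to 50 after the start, with the shared bases in capitals. The GAS6-DT window (chr13:113863927-113864226, + strand) shares 200 bases with that of GAS6 and has 79.7% G and C. The RASAL2-AS1 window (chr1:178093944-178094243, - strand) shares 210 bases with that of RASAL2 and has 75% G and C.
GAS6-DT: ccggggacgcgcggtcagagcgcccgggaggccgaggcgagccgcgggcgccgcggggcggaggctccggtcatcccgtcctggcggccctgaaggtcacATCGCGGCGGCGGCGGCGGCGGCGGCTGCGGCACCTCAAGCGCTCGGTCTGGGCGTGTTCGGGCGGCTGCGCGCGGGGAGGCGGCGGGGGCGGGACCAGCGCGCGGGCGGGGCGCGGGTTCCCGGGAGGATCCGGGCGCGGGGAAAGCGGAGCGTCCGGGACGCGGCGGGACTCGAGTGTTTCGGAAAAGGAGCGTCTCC
RASAL2-AS1: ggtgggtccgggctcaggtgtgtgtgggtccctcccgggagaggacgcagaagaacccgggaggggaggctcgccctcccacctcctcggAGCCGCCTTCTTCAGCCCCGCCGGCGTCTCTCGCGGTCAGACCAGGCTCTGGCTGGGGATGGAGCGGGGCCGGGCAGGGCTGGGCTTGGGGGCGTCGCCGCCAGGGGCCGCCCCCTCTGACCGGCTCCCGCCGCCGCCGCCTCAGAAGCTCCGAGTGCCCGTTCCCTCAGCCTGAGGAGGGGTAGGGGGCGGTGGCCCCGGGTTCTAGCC

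FOXD2-AS1 starts 1376 bases from FOXD2, a forkhead transcription factor gene, and here the partner moved too. It had 1.36, 1.53 and 2.43 CPM in FaDu controls and 5.61, 8.47 and 8.76 CPM after HT, without overlap (2.11, SE 0.27, adjusted p 0.0012). FOXD2 had 2.36, 2.95 and 2.43 CPM and then 7.42, 7.68 and 8.6 CPM, also without overlap (1.64, SE 0.17, adjusted p 0.00042). In SAS spheroids FOXD2-AS1 had 9.57, 9.24 and 9.61 CPM in controls and 12.7, 10.6 and 13.6 CPM after HT (0.41, SE 0.13, adjusted p 0.041), and FOXD2 differed by -0.03. The interaction for FOXD2-AS1 was 1.73 (SE 0.29, adjusted p 0.0024). NUP50-DT, divergent from the nuclear pore gene NUP50, had 2.39, 1.82 and 2.12 CPM in SAS controls and 3.27, 4.8 and 4.61 CPM after HT, without overlap. Its log2 fold change was 1.03 (SE 0.23, adjusted p 0.006), and it was 0.94 without SAS control replicate 2, 0.93 without SAS HT replicate 2 and 0.98 without SAS HT replicate 3. FaDu spheroids held more NUP50-DT, 23.1, 26.1 and 26.6 CPM in controls and 20.4, 21.3 and 24.1 CPM after HT (-0.18), and the interaction was -1.18 (SE 0.22, adjusted p 0.0047).

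Downstream of protein-coding genes, AL645608.7 starts 911 bases past the end of HES4, a transcriptional repressor gene, on the same strand. It had 0.892, 0.917 and 1.13 CPM in FaDu controls, 13.1, 16.7 and 18.9 CPM after HT and 8.97, 11.7 and 14.4 CPM after HT + RT. In SAS spheroids it had 2.34, 2.34 and 2.24 CPM in controls, 5.52, 4.8 and 5.2 CPM after HT and 5.19, 4.93 and 4.56 CPM after HT + RT. All heated libraries of a type lay above all its controls, and the controls of SAS lay above those of FaDu. The log2 fold changes after HT were 4.06 (SE 0.21, adjusted p 7.6e-06) in FaDu and 1.20 (SE 0.18, adjusted p 0.00064) in SAS spheroids, with an interaction of 2.89 (SE 0.27, adjusted p 1.4e-05), the highest among the members called. Against RT, AL645608.7 had 3.24 (adjusted p 0.00029) in FaDu and 1.22 (adjusted p 0.00091) in SAS spheroids. HES4 had 22.5, 35.9 and 41.4 CPM in FaDu controls and 33.3, 39.9 and 44.2 CPM after HT (0.26, adjusted p 0.44), and 0.46 (adjusted p 0.0065) in SAS spheroids.

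OLMALINC, named for oligodendrocyte maturation, starts 8679 bases past the fatty acid desaturase gene SCD. It had 5.82, 4.84 and 4.95 CPM in FaDu controls and 10.1, 9.25 and 13.8 CPM after HT (1.11, SE 0.19, adjusted p 0.0044), and 10.1, 10.3 and 9.02 CPM in SAS controls and 27.8, 20.3 and 21.5 CPM after HT (1.28, SE 0.14, adjusted p 4e-05). The groups did not overlap, and the interaction was -0.13 (adjusted p 0.86). SCD differed by 0.01 and 0.09. AC144831.1, 9136 bases past METRNL, had 1.15, 0.815 and 1.22 CPM in FaDu controls and 4.5, 10 and 15.6 CPM after HT, a wide spread above all controls (3.26, SE 0.45, adjusted p 0.0018), and it had 3 counts in the SAS controls and was not tested for HT there. METRNL differed by 0.15 (adjusted p 0.18) after HT and by 0.53 (adjusted p 0.0032) after HT + RT in FaDu spheroids. In SAS spheroids METRNL differed by 0.74 (adjusted p 0.024) after HT and was altered after HT + RT (1.06, adjusted p 0.00077). LINC00346, 8289 bases past ANKRD10, had 7.56, 10.3 and 9.31 CPM in FaDu controls and 16, 22.1 and 24.4 CPM after HT (1.23, SE 0.18, adjusted p 0.0025). SAS spheroids had 16.5, 17.8 and 16.8 CPM and then 15.3, 15.9 and 16.9 CPM of LINC00346 (-0.06, adjusted p 0.74), and the interaction was 1.31 (SE 0.21, adjusted p 0.0016). ANKRD10 had a log2 difference of 0.63 (adjusted p 0.0052) in FaDu spheroids and was altered in SAS spheroids (1.09, adjusted p 2.2e-06), where LINC00346 was not.

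AP003469.4 lies 8249 bases past ZNF706, a zinc finger gene. It had 1.09, 0.798 and 0.413 CPM in SAS controls and 9.41, 6.88 and 6.78 CPM after HT, far apart (3.34, SE 0.29, adjusted p 5.8e-06), and 2 of its 3 SAS controls were over the count cutoff of the filter. In FaDu spheroids it had too few counts for the HT test, with 0.351, 1.72 and 3.06 CPM after HT against 0.42, 0.204 and 0.252 CPM in controls, where the first HT library lay among the controls. After HT + RT the FaDu values were 0.971, 2.06 and 1.83 CPM, above all controls (2.49, SE 0.42), but it entered that test through the HT + RT libraries alone and had to differ there, so no p is given. ZNF706 differed by -0.14 in SAS spheroids after HT (adjusted p 0.11).

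Among members that overlap a gene on the other strand, AC025259.3 changed most. It lies across NR4A1, an immediate early gene for a nuclear receptor, and had 3, 1 and 1 counts in the FaDu controls and 770, 500 and 751 counts after HT. In CPM, the HT libraries had 45, 26.1 and 39.6 and the HT + RT libraries 41, 30.6 and 35, so heated libraries were set wholly apart from the rest. The fitted log2 fold change was 8.76 (SE 0.38), 8.71 (SE 0.26) after HT + RT and 7.21 (SE 0.28) against RT. In the tested FaDu comparisons it had to differ, since it passed the filter through its heated libraries, so no p is given. In SAS spheroids AC025259.3 had 0, 0 and 0 counts in controls and 3, 3 and 1 after HT, too few for a test of HT. NR4A1 had 27.6, 42.2 and 41.3 CPM in FaDu controls and 792, 757 and 1047 CPM after HT (4.57, SE 0.20, adjusted p 2.6e-06), and 8.43, 9.46 and 8.02 CPM in SAS controls and 46.1, 41.7 and 47.5 CPM after HT (2.42, SE 0.10, adjusted p 9.7e-09). With the strand of counting unknown, AC025259.3 cannot be told apart from reads of NR4A1.

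**Figure D4:**
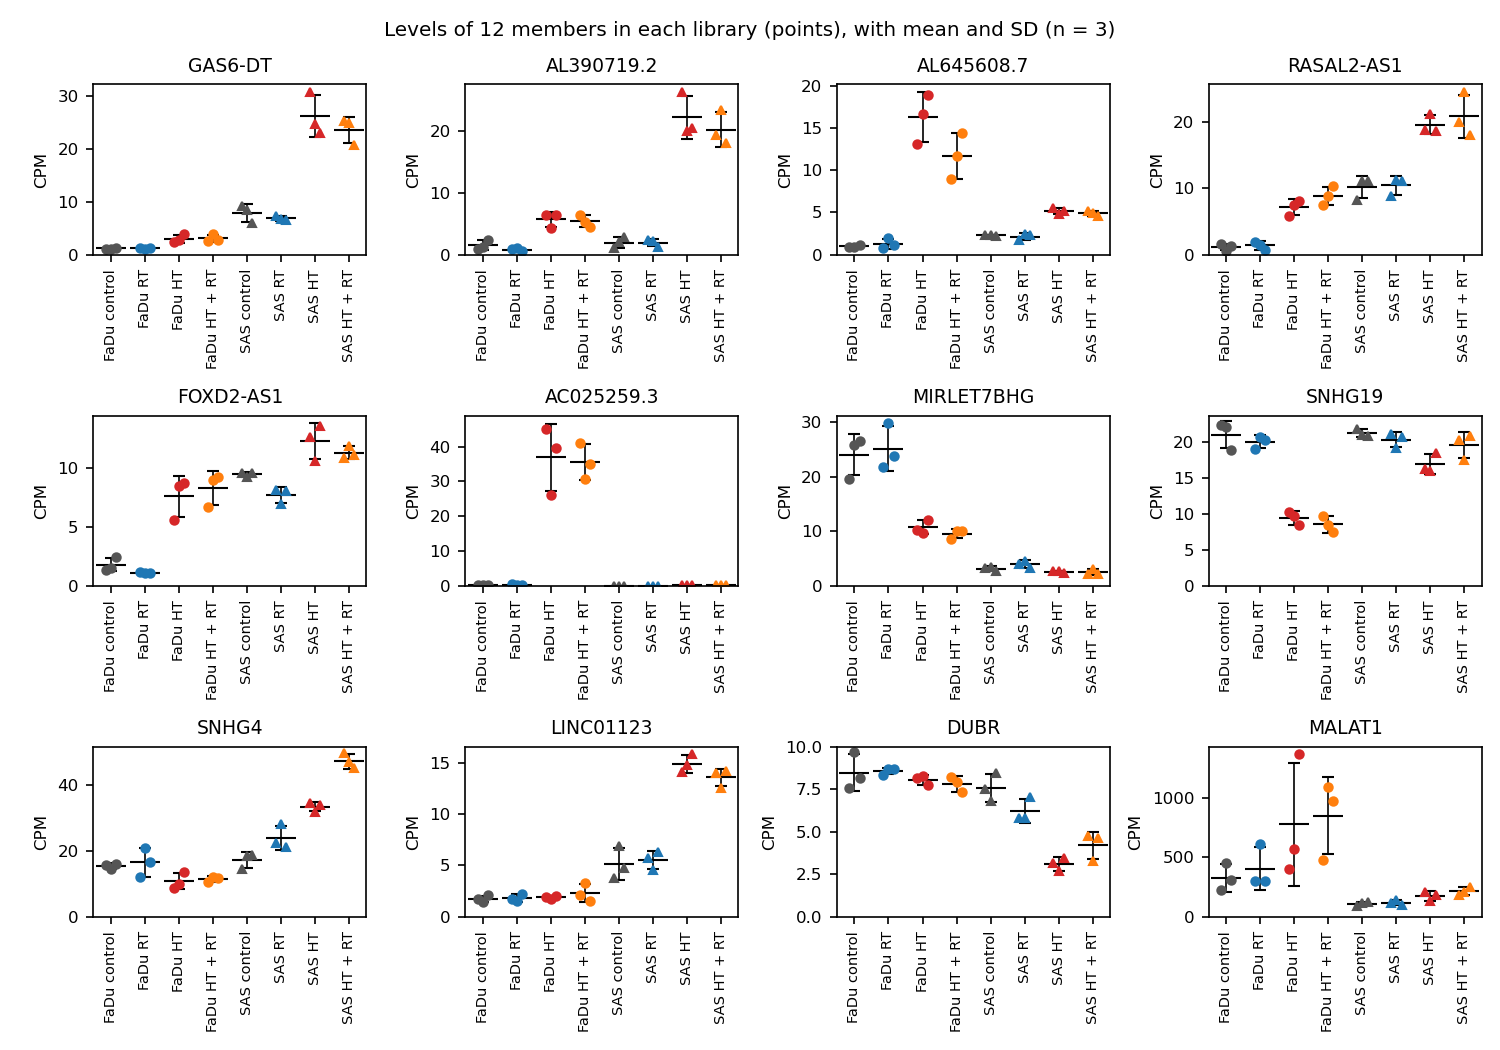
CPM of 12 members in each of the 24 libraries (points), with the mean and SD of 3 libraries per group (bars), circles for FaDu and triangles for SAS spheroids. AC025259.3 is near 0 outside FaDu HT and HT + RT, and SNHG4 and LINC01123 stand above their controls in heated SAS libraries but not in heated FaDu libraries.

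Members in none of these classes include AL390719.2, 3541 bases from the tubulin ligase gene TTLL10. It had 0.84, 1.22 and 2.43 CPM in FaDu controls and 6.37, 4.34 and 6.38 CPM after HT. In SAS spheroids it had 0.979, 2 and 2.83 CPM in controls and 26.2, 19.9 and 20.5 CPM after HT. The groups did not overlap in either type (1.92, SE 0.35, adjusted p 0.0066 in FaDu, and 3.56, SE 0.25, adjusted p 1.1e-06 in SAS). Against RT the changes were 2.76 (SE 0.26, adjusted p 0.00029) and 3.42 (SE 0.20, adjusted p 2.3e-07), and the interaction of -1.62 had an adjusted p of 0.066. TTLL10 had 0, 1 and 0 counts in FaDu controls and 22, 28 and 67 after HT, and in SAS spheroids 2, 1 and 2 and then 13, 8 and 8.

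LINC01615 was sparse in FaDu spheroids, with 1, 3 and 5 counts in controls and 18, 16 and 21 after HT, and abundant in SAS spheroids, with 476, 408 and 457 counts in controls and 564, 608 and 678 after HT. In CPM these were 0.0525, 0.153 and 0.21 and then 1.05, 0.836 and 1.11 in FaDu spheroids, and 25.9, 23.3 and 26.9 and then 31.8, 31.7 and 36.8 in SAS spheroids. Neither pair of groups overlapped. LINC01615 entered the FaDu test of HT through the HT libraries alone, with no control over the count cutoff, so it had to differ there. The fitted log2 fold change was 2.77 (SE 0.45), and no p is given. Against RT its FaDu value for HT + RT was 1.05 (adjusted p 0.14). The log2 difference in SAS spheroids was 0.43 (SE 0.09, adjusted p 0.0059), and the interaction was 2.36 (SE 0.37, adjusted p 0.0014). Its nearest protein-coding gene, THBS2, for a matrix glycoprotein, lies 52856 bases away and differed by 0.00 in FaDu and -0.29 in SAS spheroids. Between the controls, LINC01615 (-7.37) and THBS2 (-6.44) were both lower in FaDu spheroids.

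LINC01123 and LINC01106 are near-identical copies, as given above, and their values may share reads. LINC01123 had 3.81, 6.9 and 4.77 CPM in SAS controls and 14.1, 14.8 and 15.9 CPM after HT (1.56, SE 0.19, adjusted p 8.9e-05). LINC01106 had 6.74, 8.49 and 7.07 CPM and then 14.7, 13.6 and 15.6 CPM, with a log2 fold change just over 1 (SE 0.13, adjusted p 0.00022). Both were above all controls in every SAS HT library. In FaDu spheroids LINC01123 had 1.73, 1.43 and 2.06 CPM in controls and 1.93, 1.72 and 2 CPM after HT (0.14, SE 0.23, adjusted p 0.75), and its interaction was -1.40 (SE 0.31, adjusted p 0.014), or -1.26 with an adjusted p of 0.06 without FaDu control replicate 3. The interaction of LINC01106 was -0.41 (adjusted p 0.49). Their promoter windows were equal in 289 of 289 aligned bases at an offset of 11 bases.

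DUBR, the DPPA2 upstream binding RNA, fell in SAS spheroids from 7.5, 6.84 and 8.49 CPM in controls to 3.15, 2.66 and 3.47 CPM after HT. The groups were far apart (-1.27, SE 0.18, adjusted p 0.00031). FaDu spheroids had 7.56, 9.68 and 8.18 CPM in controls and 8.18, 8.31 and 7.75 CPM after HT, with overlap (-0.04, SE 0.14, adjusted p 0.87), and the interaction was 1.25 (SE 0.22, adjusted p 0.0027). DUBR was called for HT against control alone: after HT + RT its SAS value was -0.81 (adjusted p 0.0065, under the size), and in the separate libraries against RT it was -0.53 (adjusted p 0.054). AC011815.1, which overlaps ZSCAN30 on the same strand, fell in SAS spheroids from 3.15, 3.48 and 3.36 CPM to 1.35, 1.2 and 2.11 CPM (-1.06, SE 0.26, adjusted p 0.01), and its value was -0.98 without SAS HT replicate 1 and -0.90 without SAS HT replicate 2. After HT + RT it was -1.01, or -0.98 without SAS control replicate 2 and -0.96 without SAS HT + RT replicate 1. AC083843.2 rose in SAS spheroids from 3.75, 3.99 and 4.42 CPM to 21.8, 13 and 13.4 CPM (2.02, SE 0.21, adjusted p 3.3e-05), with 0.71 (adjusted p 0.11) in FaDu spheroids and an interaction of -1.28 (adjusted p 0.066). After HT + RT against control its FaDu value was 0.87, under the size for a call. In the separate libraries of HT + RT against RT it was altered in both types, with 1.38 in FaDu and 2.33 in SAS spheroids.

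AC108062.1 rose in SAS spheroids from 2.61, 1.6 and 3.01 CPM to 6.08, 9.23 and 5.15 CPM, without overlap (1.54, SE 0.27, adjusted p 0.0016). LINC01679 had 1.13 (SE 0.20, adjusted p 0.0016) after HT in SAS spheroids and 0.79 (SE 0.22, adjusted p 0.038) in FaDu spheroids. After HT + RT against control it was altered in both types. AC008556.1 had 1.63, 1.53 and 1.17 CPM in FaDu controls and 3.21, 3.71 and 3.22 CPM after HT, without overlap (1.26, SE 0.22, adjusted p 0.0055). In SAS spheroids it had 2.28, 2.45 and 3.3 CPM in controls and 1.35, 1.88 and 2.98 CPM after HT, with overlap, and its interaction was 1.62 (SE 0.39, adjusted p 0.023). That interaction lost its call without FaDu control replicate 3 (adjusted p 0.072), SAS control replicate 3 (0.07), FaDu HT replicate 2 (0.061), SAS HT replicate 1 (0.054) or SAS HT replicate 2 (0.064).

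Some members were called for HT + RT without a call for HT. AC093297.2 in FaDu spheroids had -1.10 (adjusted p 0.01), or -0.98 without FaDu control replicate 2. In SAS spheroids AC090114.2 had -1.11 (adjusted p 0.0018), or -0.92 without SAS control replicate 3, and AC019069.1, which overlaps the hexokinase gene HK2, had -1.06. AC012360.3 had 1.15 (adjusted p 0.0095), or 0.87 without SAS control replicate 1, and AL512274.1 had 1.24 (adjusted p 0.0087), or 0.96 without SAS control replicate 3. A library thus decides several of these calls, and no member was altered between HT + RT and HT.

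The control levels of the 2 lines differed widely. FaDu against SAS controls altered 39 members upward and 55 downward of 198 tested, beside 21.2% and 16.9% of all 15810 genes. The median size of the log2 difference was 0.95 for members and 0.72 for all genes, and without the FaDu replicate 1 libraries 96 members were altered, with 92 of the 94 among them. Across genes, control levels had a Spearman correlation of 0.27 between the lines over the members and 0.86 over all genes tested. Because a high count in 1 line is enough to be chosen, members with a large difference between the lines were favoured by the choice itself, and nothing particular to lincRNAs can be read from this.

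In 24 members, the controls of 1 line had at most 10 counts summed over 3 libraries. LINC00665 had 80.3, 80.6 and 76.6 CPM in FaDu controls and 0 counts in SAS controls, at least 1393-fold higher against a floor of 3 counts summed over the group, a bound that covers counting error only. LINC01234 had 57.7, 50 and 54.7 CPM in FaDu controls and 0 counts in SAS controls, at least 955-fold higher. On the same floor, FaDu levels were at least 172-fold higher for AL354707.1, 147-fold for LINC01006, 141-fold for CASC9, 93.9-fold for LINC01748, 92.8-fold for AC022730.4 and 70.8-fold for LINC02328. CASC9 and LINC01748 had no count in any of the 12 SAS libraries. LINC02015 had 507 counts in FaDu and 2 in SAS controls, and AC144831.1 had 67 and 3.

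The reverse held for other members. AC007207.2 had 15.8, 21.4 and 18.6 CPM in SAS controls and 0 counts in FaDu controls, at least 387-fold higher in SAS spheroids. SAS levels were at least 220-fold higher for AC004704.1, 182-fold for AC087612.1 and 122-fold for LINC01204. AC004704.1 and LINC01204 had no count in any of the 12 FaDu libraries. AC092112.1 had 1094 counts in SAS and 2 in FaDu controls, LINC00964 281 and 1, LINC00973 381 and 3, LINC01293 804 and 6, and AC092807.3 325 and 4. Of the most abundant members per kb, UCA1 (-2.73, SE 0.21), AL161431.1 (-2.02, SE 0.09), LNCAROD (-1.96, SE 0.14), AC245041.2 (-1.88, SE 0.10) and LINC00958 (-1.32, SE 0.08) were lower in FaDu than in SAS controls. AC245041.1 (2.47, SE 0.15), AL035661.1 (2.01, SE 0.15) and MALAT1 (1.65, SE 0.22) were higher. SFTA1P (-6.23) and AL391121.1 (-1.34) were lower in FaDu spheroids too, LINC01503 lay at the threshold, and AP002360.1 (-0.86) was not altered. Of the genes in the last 3 sentences, MALAT1 alone was altered by heat against control.

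**Figure D5:**
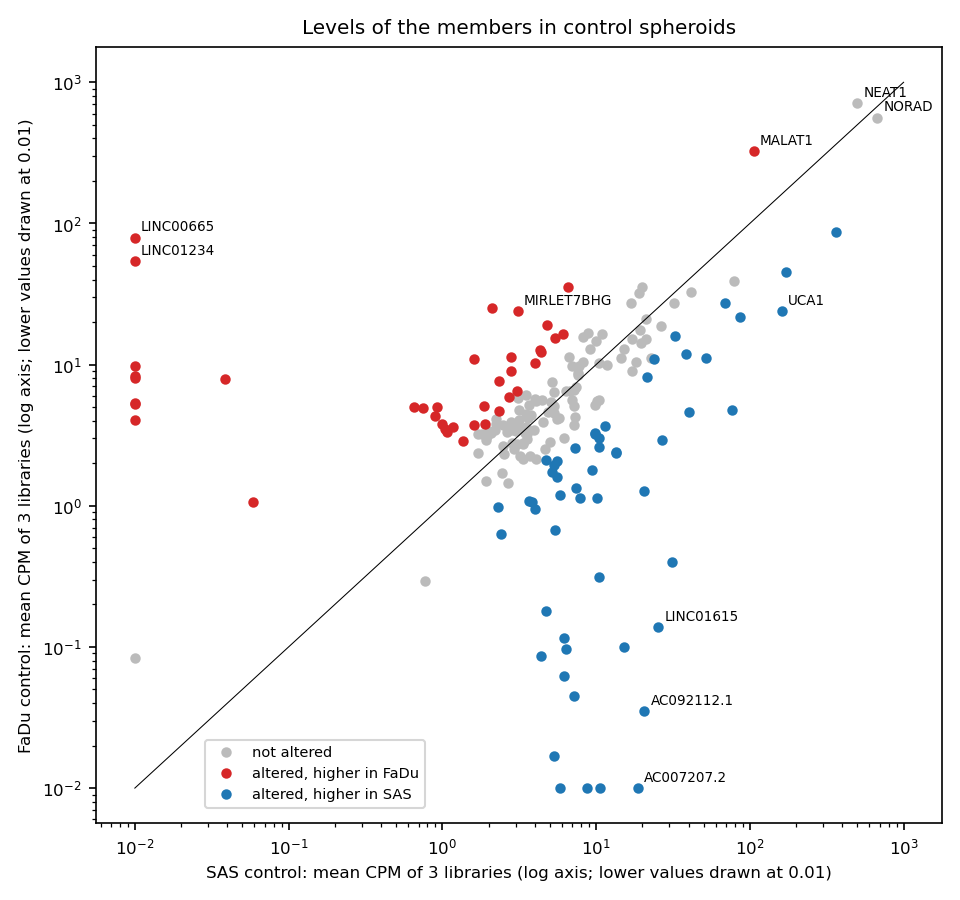
Mean CPM of 3 control libraries, SAS on the horizontal and FaDu on the vertical log axis, with 1 point per member, colours for the call between controls and a line of equality. NEAT1 and NORAD lie near the line, LINC00665 and LINC01234 on the left edge and AC007207.2 on the lower edge.

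The interaction of spheroid type and HT was altered upward for 8 members, where the log2 change was more upward in FaDu than in SAS spheroids, and downward for 3, beside 1.25% and 1.49% of all 17219 genes, and 14 were altered without the FaDu replicate 1 libraries, the same 11 among them. Those with values above were AL645608.7, LINC01615, FOXD2-AS1, RASAL2-AS1, AC008556.1, LINC00346 and DUBR, the last through its fall in SAS spheroids, and downward SNHG4, LINC01123 and NUP50-DT. The other was LINC00491, with 2.68, 2.95 and 4.19 CPM in FaDu controls and 5.09, 5.02 and 5.01 CPM after HT, and with 1.9, 2.05 and 2.24 CPM in SAS controls and 0.845, 1.04 and 1.46 CPM after HT. Its FaDu HT libraries lay above and its SAS HT libraries below their controls, and the difference was 1.51 (SE 0.33, adjusted p 0.014).

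Of the 200 members, 34 (17%) were altered in at least 1 of 6 comparisons of heated with unheated spheroids of a type, beside 11.9% of the 17522 genes tested in any of them. AC025259.3, LINC01615 and AP003469.4 are among the 34 through comparisons that they entered without 3 unheated libraries over the count cutoff. Without genes that entered through 1 group alone, 32 of 199 members were altered, beside 8.96% of 17127 genes. Counting the control libraries alone would have kept 185 of the 200 members, and 8 of the 34 would have been left out: AC025259.3 with 5 control counts, AL390719.2 with 199, AL645608.7 with 184, AC144831.1 with 70, AC108062.1 with 167, AL512274.1 with 255, AC008556.1 with 230 and AP003469.4 with 59. Heated libraries thus helped to choose some of the members that rose.

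Promoter windows of 300 bases, from RefSeq, matched 85 members by symbol, 16 of them among the 34. Motifs were searched on both strands as letters. The pairs of heat shock element units GAANNTTC and TTCNNGAA stood in 3 and 9 of the 85 windows and in 0 of the 16, beside 6.77% and 7.74% of all 35116 promoters. The AP-1 letters TGAGTCA stood in 7 and 1, beside 4.95%, the cAMP response element TGACGTCA in 2 and 0, beside 1.85%, and the EGR letters GCGTGGGCG or GCGGGGGCG in 5 and 2 (MALAT1 and GAS6-DT), beside 5.77%. A match describes letters in this window and is not a bound site. The 1 of the 16 with AP-1 letters was LINC01615, whose calls in heated FaDu spheroids came from tests that it entered through its heated libraries alone, so the match is not tied to heat here. Its window (chr6:169162940-169163239 in GRCh38.p14, - strand, 5′ to 3′) is shown with the matches, 1 on each strand, in capitals.
LINC01615: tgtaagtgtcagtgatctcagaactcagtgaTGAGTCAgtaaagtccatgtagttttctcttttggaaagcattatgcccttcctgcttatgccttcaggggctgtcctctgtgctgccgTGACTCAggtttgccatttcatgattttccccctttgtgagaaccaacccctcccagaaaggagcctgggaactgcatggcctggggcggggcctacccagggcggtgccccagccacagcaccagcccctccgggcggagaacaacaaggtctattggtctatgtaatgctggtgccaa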

How the data were processed

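RNA-Seq was measured in 24 libraries, 3 per group, grouped by the spheroid type, treatment and replicate number in the sample titles. The authors converted base calls with bcl2fastq and deposited 7 tables of raw counts of reads per Ensembl gene. The authors also deposited normalized counts, which were not used here, and used DESeq2. The aligner, counting program, strand setting and annotation are not given in the sources used here. GEO names the genome build as mm9, a mouse build, while the gene identifiers are human, so the build is taken as unknown. Symbols, gene types, exon lengths and neighbours came from GENCODE release 29, in which 602 genes, with 0.0217% of the counts, were not found.

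In R 4.3.3, edgeR 4.0.16 tested the counts: filterByExpr with a minimum count of 10, TMM, the quasi-likelihood F test on the groups compared, and Benjamini-Hochberg adjustment over all genes tested in each of 12 comparisons. A standard error (SE) is the absolute log2 value divided by the square root of F. Levels are CPM with TMM over 24 libraries. The code was checked on simulated data. Copies were transcripts of at least 95% identity over 50% of the longest transcript.

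The members and the lists (check genes, markers, snoRNA hosts, microRNA hosts, p53-linked and stress-linked lincRNAs, paraspeckle and speckle proteins, position classes) were chosen with earlier results of these data known. Named members are the 20 with the highest CPM per kb; MALAT1 and NEAT1; the 10 highest and 10 lowest altered in HT and in HT + RT against control, between the controls and in the interaction; those altered in all 4 separate heat comparisons; and the listed hosts and stress lincRNAs. Others, such as MATR3, CLK1 and the neighbours, were chosen after seeing values. XIST counts as a member but is left out of levels, changes and figures.

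As alternatives, the same thresholds were applied to a Wald test in DESeq2 1.42.0, to edgeR with RLE factors and to edgeR without the filter; others were a block for replicate number, the adjusted p alone, members ranked by mean CPM, each library left out in turn and, chosen after seeing the data, the FaDu replicate 1 libraries left out together, and the heat counts without genes that reached the count cutoff in the libraries of 1 group alone. Pairing by the replicate numbers in the titles was checked by correlating same-numbered libraries' deviations from their group means over tested genes. It was over 0.1 in all 3 pairs except for HT against control in SAS spheroids (1 of 3) and for the controls of FaDu and SAS spheroids (0 of 3). The block is therefore given beside the value of a member only where the numbers pair and it changes a call. Block counts of altered members are also given where the numbers do not pair.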

Additional observations from a re-analysis of the deposited data

Results flagged for a closer look

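The change after HT differed between FaDu and SAS spheroids in a test of the difference itself for 11 members, given here as FaDu minus SAS on the log2 scale. It was more upward in FaDu spheroids for AL645608.7 (2.89), LINC01615 (2.36), FOXD2-AS1 (1.73), RASAL2-AS1 (1.71), AC008556.1 (1.62), LINC00491 (1.51), LINC00346 (1.31) and DUBR (1.25). It was more upward in SAS spheroids for SNHG4 (-1.44), LINC01123 (-1.40) and NUP50-DT (-1.18). DUBR fell in SAS spheroids after HT with no change called in FaDu spheroids, but was not called in SAS spheroids after HT + RT (-0.81), nor against RT in separate libraries (-0.53), and LINC00491 was not altered by HT in either type alone. LINC01615 had 1.05 (adjusted p 0.14) in FaDu and 0.59 in SAS spheroids for HT + RT against RT, closer to each other than for HT. With 1 library left out, the call was lost for AC008556.1 in 5 fits (1.35 to 1.51) and for LINC01123 in 1 (-1.26). For AL645608.7, LINC01615, FOXD2-AS1, RASAL2-AS1, AC008556.1, LINC00346 and LINC01123 the SAS controls lay above the FaDu controls, for NUP50-DT and LINC00491 below them, and the part of that in the difference was not tested.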

How the results depend on the processing

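With adjusted p alone, and no minimum size of change, the altered members numbered 30 in place of 15 for HT in FaDu spheroids, 47 for 14 in SAS spheroids, 42 for 18 and 57 for 19 for HT + RT against control, 41 for 13 and 59 for 18 for HT + RT against RT, and 144 for 94 between the controls, since smaller changes then count. Of all genes tested, 17.6% and 23.6% passed for HT, 19.3% and 25.1% for HT + RT against control, 19.3% and 27.8% for HT + RT against RT and 75% between the controls, beside 16.4% and 25%, 22.8% and 30.3%, 22.4% and 31.4%, and 72.7% of members. RT in SAS spheroids altered 0 to 1 member with each library left out. With a block for replicate number the counts were 16 and 15 for HT, 18 and 20 for HT + RT, 15 and 17 for HT + RT against RT, 93 between the controls and 14 for the interaction. The numbers did not pair for HT in SAS spheroids or between the controls, so the block does not stand for pairing there. Other counts of altered members, by DESeq2, RLE size factors, no filter, members by mean CPM and without the FaDu replicate 1 libraries, lay within 1.5 times the values reported. Counts at an unadjusted p moved more: 14 for RT in FaDu spheroids became 28 with the block, and 17 in SAS spheroids became 33. With no filter the FaDu count for RT became 24 (12.2% of members, beside 3.99% of genes). Without the FaDu replicate 1 libraries it became 33 (18.2%, beside 9.1%). For HT + RT against HT, 7 in FaDu spheroids became 13 with the block (7.07% of members, beside 9.01% of genes). Without the replicate 1 libraries it became 11 (5.98%, beside 5.61%). In SAS spheroids 10 became 22 with the block (11.7%, beside 9.93%) and 17 with no filter (8.59%, beside 3.84%). Leaving out 1 library gave 3 to 9 and 6 to 17. The cause of these moves was not tested. Without genes that reached the count cutoff in 1 group alone, the FaDu counts were 13 for HT, 15 for HT + RT and 11 for HT + RT against RT, and the SAS counts did not change. Leaving out 1 library gave 15 to 18 members for HT in FaDu and 12 to 19 in SAS spheroids. Of these, 2 to 3 were downward in FaDu and 1 to 5 in SAS spheroids. For HT + RT against control the downward counts were then 2 to 6 in FaDu and 3 to 4 in SAS spheroids. For HT + RT against RT they were 2 to 5 and 1 to 4. Of 1173 values of named members under an alternative, 0 changed direction. With 1 library left out, 658 of 690 kept their call, 27 lost it and 5 gained it; under the other alternatives 476 of 483 kept it, 1 lost it and 6 gained it. The size of change that 3 libraries per group could detect was not tested, and the unknown strand setting and copies limit what overlapping members can show.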
